A study of Mus musculus with 8 samples.

Results

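The 8 lymphoid progenitor genes described here are Flt3, Kit, Notch1, Cd34, Ptprc, Sox4, Myb and Ly6d, genes of stem, multipotent and common lymphoid progenitors. They were chosen by symbol and not by a cutoff on their values, but with earlier results of these data known. All 8 were found once among the 52550 genes listed for each library. The study deleted the gene of lactoferrin, an iron-binding protein of milk and neutrophil granules, in C57BL/6J mice, and asked how gene expression differs in early B cells of bone marrow. Untreated animals were used, with age-matched wild-type (WT) littermates as controls. Their age was not given in the sources used here. Analysed were 7 libraries, 4 of pre-pro-B cells (2 WT and 2 Lf-/-) and 3 of pro-B cells (1 WT and 2 Lf-/-). WT pro-B replicate 2 was not analysed here. By the study's definition, pre-pro-B cells carry AA4.1 and B220 and lack CD24, among other markers, and pro-B cells carry B220 and CD43 and lack IgM. The labels give the genotype as Lf-/- without the stretch deleted or a cell type, and do not say whether a library is 1 mouse or a pool, or whether equally numbered libraries share a mouse. P-values therefore measure the spread between these libraries, which may be technical.

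Blood formation passes from stem cells, which express the receptor tyrosine kinase c-Kit, through multipotent progenitors that gain the related receptor Flt3, to common lymphoid progenitors. Flt3 and c-Kit receive survival and growth signals from their ligands. Ly6d marks those lymphoid progenitors that are biased to the B lineage, and Notch1 signaling directs progenitors to the T lineage instead. In B cell development Flt3 is turned off once the B lineage program is set, c-Kit is still found on pro-B cells, and Ly6d stays on in later B cells.

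In these libraries the 8 genes did not move as one group. Ly6d was the only one that passed the test over all genes, and was about 7-fold higher in Lf-/- cells of both stages. Sox4 was higher in every Lf-/- library than in every WT library, as were 9.87% of genes tested. Kit was lower in the same way, as were 1.13% of genes tested, though Kit itself was too low for the filter. Neither difference passed a test. High Flt3 and Cd34 in pre-pro-B cells came from 1 Lf-/- library. Notch1, Myb and Ptprc differed between genotypes by less than 1 on the log2(FPKM + 1) scale and did not pass the test. The plot of FPKM by library shows all values of the 8 genes.

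**Figure D1:**
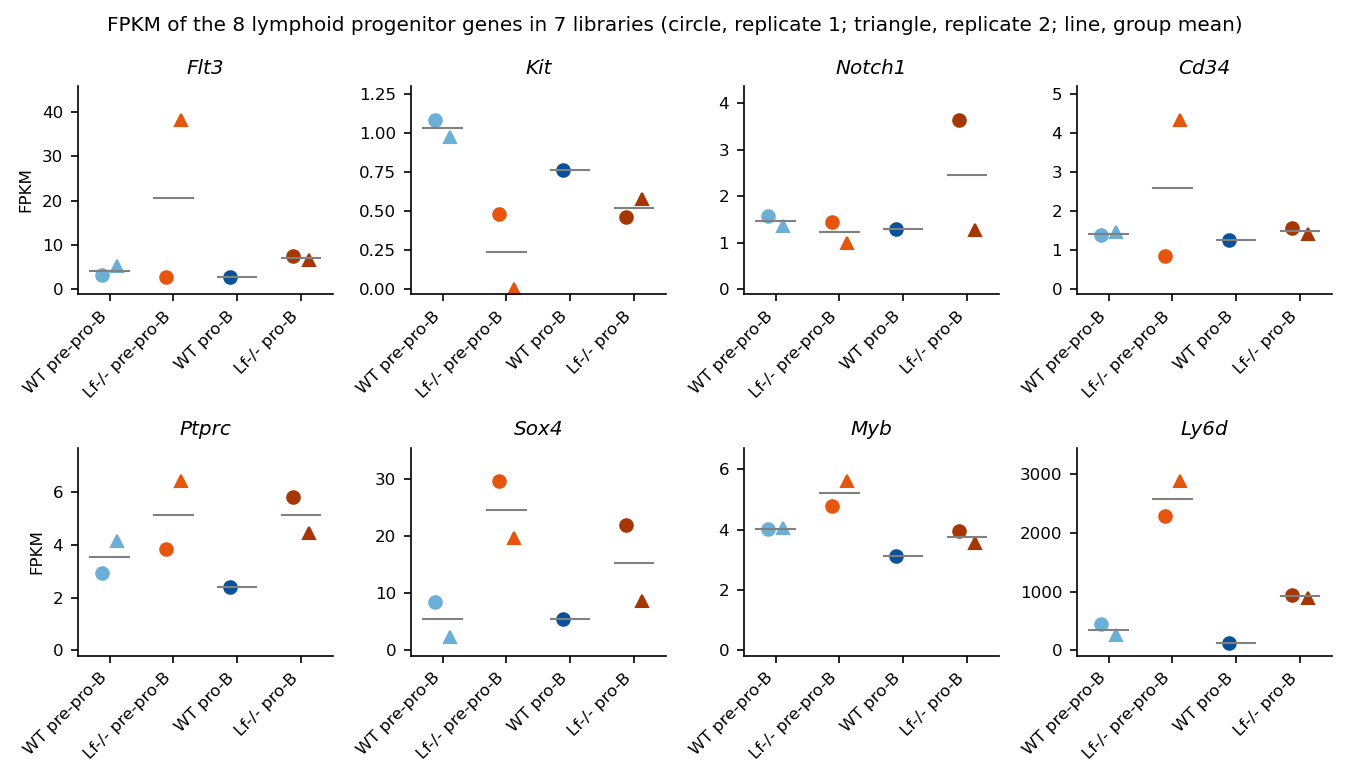
FPKM (vertical axes, linear, each with its own range) of each gene in 7 libraries, by group. Circles are replicate 1, triangles replicate 2 and grey lines group means. Ly6d lay between 899 and 2872 FPKM in the 4 Lf-/- libraries and between 134 and 447 FPKM in the 3 WT libraries, whereas Flt3 stood out in 1 Lf-/- pre-pro-B library at 38.3 FPKM.

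Values are FPKM, in which fragments are scaled by the length of the transcript and by the total of the library, so that genes can be compared by level. Step heights in the values gave 10800000 to 15300000 fragments in 6 libraries. Lf-/- pre-pro-B replicate 2 showed no such steps and its depth is not known. Only 12172 genes were above 0 in it (19477 to 20250 in each other library), and 64 of the 3478 genes at 5 FPKM or more in all other libraries were listed at 0 there. Ltf, the gene for lactoferrin, was at 88.2 to 168 FPKM in the Lf-/- libraries and at 2143 to 2731 FPKM in the WT libraries, so it was far lower but not absent, and the source of the remaining signal was not tested. The sort labels were not borne out by all marker lists. A list of 18 neutrophil granule genes took 27.7% to 55.7% of a library's summed FPKM, compared with 0.101% to 0.730% for 23 early B lineage genes. In such bulk samples more cells of a type and more RNA per cell cannot be told apart.

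Flt3 encodes the receptor for Flt3 ligand and lies on chromosome 5 (147330741 to 147400489 of GRCm38, minus strand). It was at 3.16 and 5.13 FPKM in WT pre-pro-B, 2.76 and 38.3 FPKM in Lf-/- pre-pro-B, 2.69 FPKM in WT pro-B, and 7.47 and 6.63 FPKM in Lf-/- pro-B cells. Lf-/- pre-pro-B replicate 1 lay below both WT pre-pro-B libraries and replicate 2 far above every other library, so the genotypes overlapped at this stage, whereas both Lf-/- pro-B values lay above the WT pro-B value. In order of group means Flt3 ran from Lf-/- pre-pro-B to Lf-/- pro-B, WT pre-pro-B and WT pro-B, and the first pair overlapped. The log2 difference of Lf-/- minus WT pre-pro-B cells on the log2(FPKM + 1) scale was 1.27 (SE 1.10, adjusted p = 0.941 from limma). Without Lf-/- pre-pro-B replicate 1 it was 2.96 with an adjusted p of 0.0241 from limma, as 2856 genes then passed, and without replicate 2 it was -0.43. In such fits the lone Lf-/- library is assumed to vary as the WT libraries do. In pro-B cells Flt3 was 1.12 higher on the log2 scale in Lf-/- cells than in the 1 WT library, and 0.61 higher with median-ratio scaling, which removes the typical shift between libraries.

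Kit, on chromosome 5 (75574916 to 75656722, plus strand), encodes c-Kit, the receptor for stem cell factor. It was at 1.09 and 0.977 FPKM in WT pre-pro-B, 0.479 FPKM in Lf-/- pre-pro-B replicate 1, 0.765 FPKM in WT pro-B, and 0.459 and 0.578 FPKM in Lf-/- pro-B cells, and was listed at 0 in Lf-/- pre-pro-B replicate 2. All 4 Lf-/- values lay below all 3 WT values, and the Lf-/- groups overlapped each other. Kit reached 1 FPKM in 1 library only and so did not pass the filter of at least 1 FPKM in at least 2 libraries, which left 7 of the 8 genes for the tests. Without the filter its log2 difference over both stages was -0.53 (SE 0.26, adjusted p = 0.843 from limma). The 6 libraries of known depth held an estimated 26 to 62 Kit fragments each.

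Notch1, on chromosome 2 (26457903 to 26516663, minus strand), encodes a receptor that is cleaved after ligand binding, whereupon its inner part acts in the nucleus. It was at 1.57 and 1.36 FPKM in WT pre-pro-B, 1.45 and 0.992 FPKM in Lf-/- pre-pro-B, 1.29 FPKM in WT pro-B, and 3.64 and 1.27 FPKM in Lf-/- pro-B cells. Only Lf-/- pro-B replicate 1 was apart from the others, and the genotypes overlapped at both stages. Its difference over both stages was 0.11 on the log2 scale (SE 0.36, adjusted p = 0.917 from limma) and its sign turned with median-ratio scaling (-0.10).

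Cd34 encodes a sialomucin on stem and progenitor cells and lies on chromosome 1 (194938819 to 194961279, plus strand). It was at 1.38 and 1.46 FPKM in WT pre-pro-B, 0.839 and 4.33 FPKM in Lf-/- pre-pro-B, 1.25 FPKM in WT pro-B, and 1.57 and 1.40 FPKM in Lf-/- pro-B cells. The lowest and the highest value were both from Lf-/- pre-pro-B cells, and the library at 4.33 FPKM was replicate 2, as for Flt3. The log2 difference between pre-pro-B genotypes was 0.37 (SE 0.63, adjusted p = 0.947 from limma), 1.14 without Lf-/- replicate 1 (adjusted p = 0.0442 from limma) and -0.40 without replicate 2. In pro-B cells the difference of 0.14 turned to -0.25 with median-ratio scaling.

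Ptprc, on chromosome 1 (138062861 to 138175708, minus strand), encodes CD45, a phosphatase of all white blood cells. B220, on which both populations were gated, is its form on B cells, so its level was not independent of the sort. It was at 2.95 and 4.17 FPKM in WT pre-pro-B, 3.86 and 6.41 FPKM in Lf-/- pre-pro-B, 2.41 FPKM in WT pro-B, and 5.82 and 4.44 FPKM in Lf-/- pro-B cells. The pre-pro-B genotypes overlapped, and the WT pro-B library was the lowest of all. In pro-B cells Ptprc was 0.84 higher in Lf-/- cells on the log2(FPKM + 1) scale, and 1.04 higher with a pseudocount of 0.1. Over both stages it was 0.58 higher on the log2 scale in Lf-/- cells (SE 0.32, adjusted p = 0.689 from limma), and the median over all genes tested was 0.21.

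Sox4 encodes a transcription factor needed for B cell progenitors to multiply and mature. The gene lies on chromosome 13 (28948919 to 28953713, minus strand). It was at 8.54 and 2.33 FPKM in WT pre-pro-B, 29.6 and 19.6 FPKM in Lf-/- pre-pro-B, 5.53 FPKM in WT pro-B, and 21.9 and 8.59 FPKM in Lf-/- pro-B cells. Every Lf-/- value lay above every WT value, as for 9.87% of genes tested. However, Lf-/- pro-B replicate 2 exceeded WT pre-pro-B replicate 1 only by the second decimal. The WT pre-pro-B libraries themselves lay far apart, with the WT pro-B value between them. In pre-pro-B cells the log2 difference was 2.15 (SE 0.63), with an unadjusted p of 0.0157 and an adjusted p of 0.941 from limma. Over both stages it was 1.77 (SE 0.49, adjusted p = 0.367 from limma).

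Sox4 and Flt3 were, with Ly6d, the members at least 1 apart on the log2(FPKM + 1) scale in pro-B cells, and the bases before their starts are shown for that reason. The sequences are RefSeq's on GRCm38.p6, 5′ to 3′ on the minus strand (the Sox4 stretch ends where the GENCODE transcript begins). Capitals mark the E-box, CANNTG, which E proteins such as E2A bind. Counted from the RefSeq start, it begins at position -211 for Sox4 and -245 for Flt3.
Sox4, chr13:28953714-28953949: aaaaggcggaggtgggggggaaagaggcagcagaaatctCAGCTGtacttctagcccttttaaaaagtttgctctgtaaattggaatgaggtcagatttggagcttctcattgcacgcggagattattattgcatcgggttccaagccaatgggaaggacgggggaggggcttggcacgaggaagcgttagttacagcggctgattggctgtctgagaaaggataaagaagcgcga
Flt3, chr5:147400490-147400739: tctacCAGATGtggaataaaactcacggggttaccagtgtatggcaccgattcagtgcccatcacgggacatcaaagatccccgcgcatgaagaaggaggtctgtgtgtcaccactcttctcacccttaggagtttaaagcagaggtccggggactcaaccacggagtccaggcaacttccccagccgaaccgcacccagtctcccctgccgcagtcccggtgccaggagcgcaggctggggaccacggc
CANNTG reads the same on both strands, and 66.2% of 32851 mouse promoters hold it within 250 bases before the start. Of 9 such windows of 7 members (all but Ly6d), 3 held it, the other being 1 of the windows of Ptprc. A match is a description of the letters and not a measured binding site.

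Myb, on chromosome 10 (21124935 to 21160984, minus strand), encodes c-Myb, a transcription factor required in lymphoid progenitors and pro-B cells. It was at 4.02 and 4.04 FPKM in WT pre-pro-B, 4.79 and 5.60 FPKM in Lf-/- pre-pro-B, 3.13 FPKM in WT pro-B, and 3.95 and 3.56 FPKM in Lf-/- pro-B cells. Relative to its level it varied least of the 8 genes. Each group lay apart from its neighbours in the order Lf-/- pre-pro-B, WT pre-pro-B, Lf-/- pro-B and WT pro-B. The share of all genes with 4 groups so set apart was not computed. Its log2 difference between genotypes was 0.30 in pre-pro-B cells (SE 0.44, adjusted p = 0.945 from limma) and 0.26 over both stages, which became -0.028 with median-ratio scaling.

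Ly6d, on chromosome 15 (74762056 to 74763620, minus strand), encodes a small lipid-anchored surface protein. It was at 447 and 258 FPKM in WT pre-pro-B, 2288 and 2872 FPKM in Lf-/- pre-pro-B, 134 FPKM in WT pro-B, and 936 and 899 FPKM in Lf-/- pro-B cells. All Lf-/- libraries lay above all WT libraries, as for 9.87% of genes tested, and within each genotype pre-pro-B cells lay above pro-B cells. The 4 groups were thus ordered without overlap, and the share of all genes so ordered was not computed. Ly6d ranked between 23 and 340 from the top among genes above 0 and made up 88.7% to 98.1% of the summed FPKM of the 8 genes in every library, so that sum gives little beyond Ly6d itself.

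The 7 libraries were fitted together with genotype and stage as factors, over 10793 genes. In this fit 20 genes passed an adjusted p of 0.05 (19 higher and 1 lower in Lf-/- cells, 0.185% of those tested), and Ly6d was the only one of the 7 members tested that passed. It was 2.85 higher on the log2 scale (SE 0.30, adjusted p = 0.0136 from limma), 7.23-fold, with 4 of 4 Lf-/- libraries above the WT range, and its p ranked 4 from the lowest of all genes. Sox4 also had an unadjusted p under 0.05 (0.00596), as did 7.17% of all genes. Without overlap between the 4 Lf-/- and the 3 WT libraries, Ly6d and Sox4 were higher, as were 9.87% of all genes tested. Kit was lower, as were 1.13% of the genes tested. Kit lay outside the filter, and the share among genes as low as Kit was not computed. All 7 members tested had a difference above 0, as had 7211 of the 10793 genes, with a median of 0.58 over the 7 and 0.21 over all genes. With median-ratio scaling, which brought the median of all genes to -0.059, the signs of Notch1 and Myb turned.

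**Figure D2:**
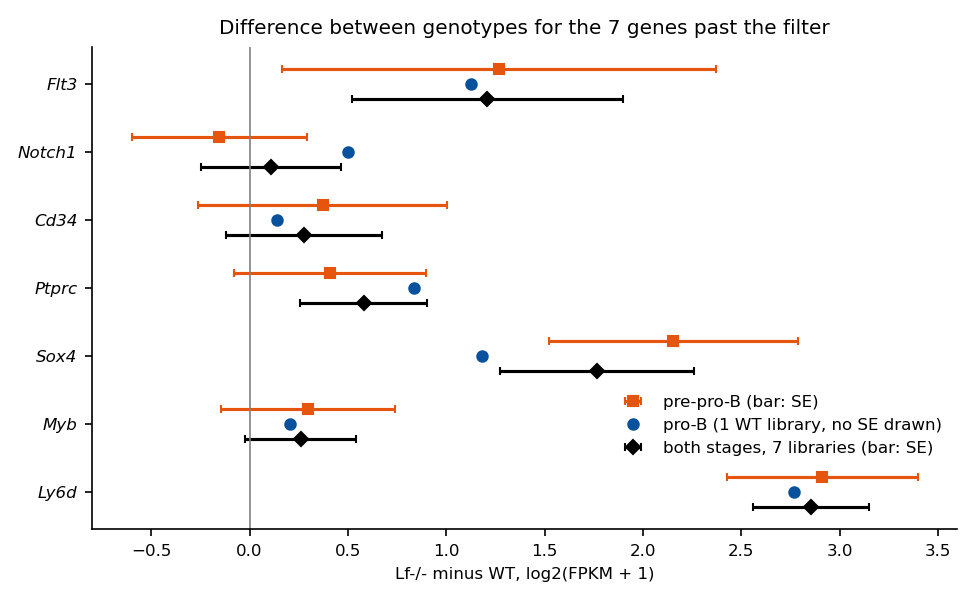
Difference between genotypes, Lf-/- minus WT on the log2(FPKM + 1) scale (horizontal axis), for the 7 genes that passed the filter. Squares are pre-pro-B cells, circles pro-B cells (1 WT library, no SE drawn) and diamonds the fit of all 7 libraries, with bars of 1 SE. Ly6d lay furthest from 0 at 2.85 over both stages, and the signs of Notch1 and Myb over both stages turned with median-ratio scaling.

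The call of Ly6d depended on the libraries and scaling. Its log2 difference stayed between 2.49 and 3.04 over 15 alternatives, and its adjusted p from limma lay between 0.00192 and 0.414, under 0.05 in 10 of them. It was 0.0549 with median-ratio scaling and 0.181 with no filter on low genes. It was 0.414 without WT pro-B replicate 1, 0.0756 without Lf-/- pro-B replicate 1 and 0.0619 without Lf-/- pro-B replicate 2. A ratio to Ptprc within a library does not change with scaling, and was looked at after the values were seen. Ly6d was 55.4 to 152 times Ptprc in the WT libraries and 161 to 592 times in the Lf-/- libraries, without overlap, whereas Sox4 was 0.559 to 2.89 and 1.94 to 7.65 times Ptprc, with overlap.

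Within pre-pro-B cells, 0 of 9720 genes passed an adjusted p of 0.05 in limma's test, and 284 had an unadjusted p under 0.05. Among these 2.92% of genes were Ly6d, 2.91 higher on the log2 scale in Lf-/- cells (SE 0.49, unadjusted p = 0.00116, adjusted p = 0.941 from limma), and Sox4. Ly6d, Sox4 and Myb did not overlap between the genotypes here and were higher in Lf-/- cells, as were 15.5% of all genes. For 1 gene, 2 libraries against 2 cannot give an exact two-sided permutation p below 0.333. In pro-B cells, with 1 WT library, Ly6d, Sox4 and Flt3 were at least 1 higher on the log2(FPKM + 1) scale without overlap, by 2.77, 1.18 and 1.12, as were 12.4% of 10793 genes. With the spread taken from all 7 libraries, 0 genes passed an adjusted p of 0.05 in limma's test and 467 had an unadjusted p under 0.05, and the adjusted p from limma was 0.720 for Ly6d and 0.822 for Sox4 and for Flt3. The median difference of all genes was 0.48, and 0.014 with median-ratio scaling, which left Ly6d at 2.12 and Sox4 at 0.61. Without Lf-/- pro-B replicate 1, Sox4 was 0.55 higher. The difference between the genotype effects of the stages was itself tested, and 0 of the 10793 genes passed an adjusted p of 0.05 in limma's test, while 296 (2.74%) had an unadjusted p under 0.05, none of them a member. For Ly6d it was -0.14 (SE 0.66, adjusted p = 0.995 from limma).

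Between the stages, Ly6d was lower in pro-B than in pre-pro-B cells of both genotypes. In Lf-/- cells the log2 difference was -1.48 (SE 0.47), with an unadjusted p of 0.0163 and an adjusted p of 0.9998 from limma. Of the 10311 genes tested 0 passed the adjusted threshold and 351 (3.4%) the unadjusted one, Ly6d alone among the members. In WT cells Ly6d was 1.34 lower on the log2 scale in the pro-B library, the only member at least 1 lower on that scale without overlap, as were 3.28% of 10793 genes, and with median-ratio scaling the difference was -0.95. Flt3 was 0.60 lower in Lf-/- pro-B than in Lf-/- pre-pro-B cells (SE 1.04, adjusted p = 0.9998 from limma). That value turned to 1.10 without Lf-/- pre-pro-B replicate 2, and was -2.29 with an adjusted p of 0.0117 from limma without replicate 1. Kit, without the filter, differed by -0.20 on the log2 scale between WT pro-B and WT pre-pro-B cells and by 0.32 between the Lf-/- stages (SE 0.30, adjusted p = 0.862 from limma).

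For each member the 2 genes nearest in pattern were taken, by the root mean square difference of log2(FPKM + 1) values centred on their mean over the 7 libraries. The nearest to Ly6d were Cd79b, the Ig-beta chain of the B cell receptor (0.27), and Fcrla, an Fc receptor-like protein of B cells (0.34), and the median over all genes was 1.44. Cd79b was at 197 and 117 FPKM in WT pre-pro-B, 1087 and 949 FPKM in Lf-/- pre-pro-B, 68.3 FPKM in WT pro-B, and 607 and 468 FPKM in Lf-/- pro-B cells. Ly6d was 1.54 to 3.03 times Cd79b in every library. Nearest to Sox4 was Irf4 (0.20), a transcription factor of B cell and plasma cell development, at 1.83 and 0.422 FPKM in WT pre-pro-B, 8.38 and 7.29 FPKM in Lf-/- pre-pro-B, 0.926 FPKM in WT pro-B, and 6.69 and 2.12 FPKM in Lf-/- pro-B cells. Arl5c, a small GTPase gene, was next to Sox4 (0.28). Slc36a3os and Ak8 were nearest to Flt3 (both 0.17), and like Flt3 were highest in Lf-/- pre-pro-B replicate 2, at 18.6 and 11.7 FPKM. Slc36a3os is named as an antisense transcript and is uncertain, since strand use in the counting was not given in the sources used here.

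**Figure D3:**
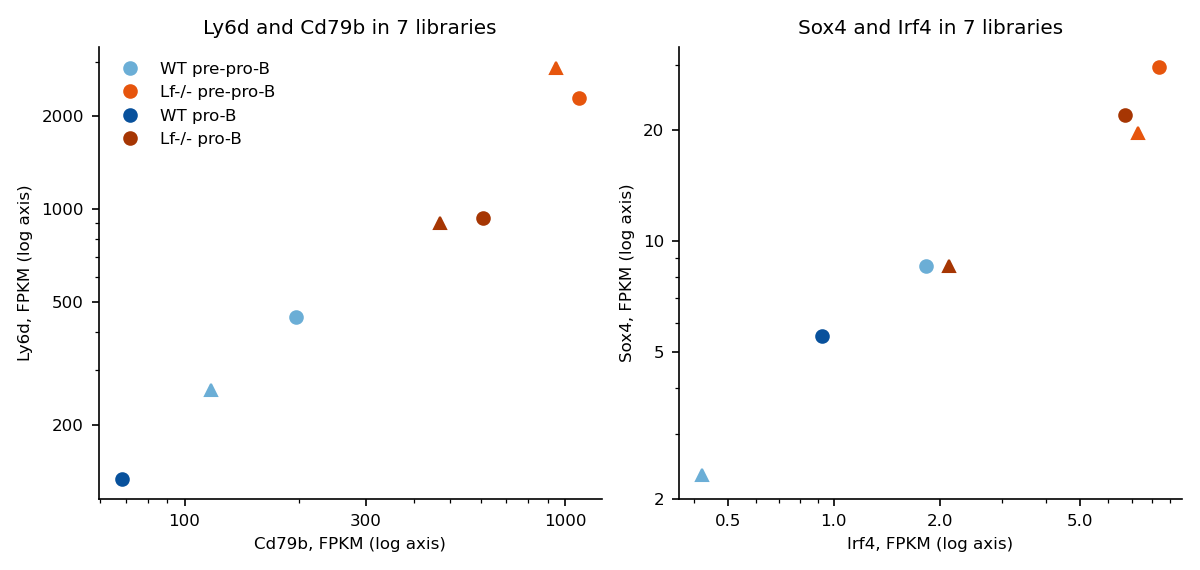
FPKM of Ly6d against Cd79b (left) and of Sox4 against Irf4 (right), both axes logarithmic, with 1 point for each of 7 libraries, circles for replicate 1 and triangles for replicate 2. Ly6d was 1.54 to 3.03 times Cd79b and Sox4 2.69 to 5.98 times Irf4.

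The other members had flatter patterns and nearest genes of low or middling level. Lactb2 (0.054) and Aph1a (0.060) were nearest to Cd34, Sass6 (0.070) and Ttc39c (0.072) to Kit, and Dennd5a (0.074) and Ythdf3 (0.14) to Notch1. The nearest to Myb were 2700099C18Rik (0.064) and Tmem135 (0.066), and to Ptprc Srsf4 and Nkiras2 (both 0.087). Sass6 and Ttc39c were listed at 0 in Lf-/- pre-pro-B replicate 2, as was Kit.

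Other genes of the progenitor stages were read from lists. Of 17 lymphoid-primed genes, 13 passed the filter, all 13 with a difference above 0 over both stages, 7 with an unadjusted p under 0.05 and 0 with an adjusted one in limma's test, and their median was 0.96 on the log2 scale. Of all 10793 genes 7211 were above 0 and 7.17% had an unadjusted p under 0.05, with a median of 0.21. Il7r, the interleukin 7 receptor chain, led them with 1.96 (adjusted p = 0.147 from limma), at 2.25 and 2.25 FPKM in WT pre-pro-B, 10.2 and 21.2 FPKM in Lf-/- pre-pro-B, 1.48 FPKM in WT pro-B, and 8.06 and 4.33 FPKM in Lf-/- pro-B cells. Dntt, the terminal transferase of V(D)J joining, and Foxo1, a transcription factor upstream of Il7r, had 1.87 (adjusted p = 0.632) and 1.64 (adjusted p = 0.247 from limma). The list shares genes with the early B lineage list below, among them Il7r, Dntt and Ighm, so the counts of these lists are not separate. Of 22 stem and multipotent progenitor genes, 11 passed the filter, 6 of them above 0 and 5 below, with a median of 0.096, and 0 passed the adjusted threshold. In pre-pro-B cells 3 were above 0 and 8 below, with a median of -0.34 (0.035 over all genes), and in pro-B cells 11 were above 0, with a median of 0.49 (0.48 over all genes). For the difference between stages 3 of the 11 had an unadjusted p under 0.05 and 0 an adjusted one in limma's test. Cd48 (1.36), Gata2 (-0.70) and Ly6a (-0.50) had the largest differences, with an unadjusted p under 0.05 for Cd48 alone.

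For Notch signaling, the ligands were almost silent, with 0 of 5 past the filter, and of the other receptors Notch2 alone passed it (0.035 over both stages, adjusted p = 0.977 from limma). Of 13 processing genes, which cut the receptor or attach its sugars, 11 passed the filter, with 7 above 0 and 0 past either threshold. Of 9 target genes 6 passed it, 5 of them above 0. Hes1, a repressor and classical Notch target, led with 1.57 (SE 0.36, unadjusted p = 0.00181, adjusted p = 0.222 from limma), at 3.73 and 3.16 FPKM in WT pre-pro-B, 8.94 and 11.7 FPKM in Lf-/- pre-pro-B, 1.54 FPKM in WT pro-B, and 12.6 and 5.68 FPKM in Lf-/- pro-B cells. Every Lf-/- value of Hes1 lay above every WT value, as for 9.87% of genes tested, unlike those of Notch1. Myc (0.76) and Nrarp (0.61), a feedback inhibitor, did not pass either threshold. The nuclear partners and the inhibitors of Notch had 1 and 2 genes past the filter and 0 past either threshold.

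Of the ligands of Flt3 and c-Kit, Kitl, the gene for stem cell factor, was below 0.05 FPKM in every library and did not pass the filter, and Flt3l, the gene for Flt3 ligand, was at 1.06 to 4.60 FPKM (0.54 over both stages, adjusted p = 0.695 from limma). Downstream of the receptors, of 17 signal transducers 14 passed the filter, all 14 with a difference above 0 over both stages and a median of 0.40, and 0 passed either threshold in limma's test. Fyn (0.65), Grb2 (0.60) and Lyn (0.59) had the largest differences. Of 12 inhibitors of these receptors 10 passed the filter, 8 of them above 0 and 2 below, with a median of 0.68. Of these, 4 had an unadjusted p under 0.05 and 0 an adjusted one. Among the inhibitors, Socs1, which blocks cytokine receptor kinases, had a difference of 1.24 and Dusp6, the ERK phosphatase, of 0.97.

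Markers of other cells also differed between the libraries, and not all lists followed the genotype. The 23 early B lineage genes had 22 past the filter, all 22 above 0 over both stages with a median of 1.83, and 4 called, among them Cd79b (2.82) and Cd79a (2.79). Of 14 mature B cell genes, 13 passed the filter and 3 were called, Ighd (3.36), Fcmr (3.33) and Ms4a1 (2.68). This list summed to 1131 to 1675 FPKM in the WT and 4378 to 5804 FPKM in the Lf-/- libraries. Cd74 alone made up most of that sum in every library. The early B lineage list summed to 845 to 5831 FPKM in the WT and 2773 to 6057 FPKM in the Lf-/- libraries, with overlap. Its highest WT value was in pre-pro-B replicate 1, where Ighm was at 4830 FPKM. The part of more B lineage cells in the Ly6d difference was not tested. The 11 plasmacytoid dendritic cell genes, a cell type in which Flt3 is also known to be active, summed to 108 to 126 FPKM in the WT libraries, 202 FPKM in Lf-/- pre-pro-B replicate 1 and 563 FPKM in replicate 2, the library with high Flt3, with 349 and 483 FPKM for Lf-/- pro-B cells. In Lf-/- pre-pro-B cells all genes of that list except Spib and Klk1 were higher in replicate 2 than in replicate 1. Bst2, for example, had 25.8 FPKM in replicate 1 and 104 FPKM in replicate 2. Spib and Klk1 of the same list went the other way. Spib had 107 FPKM in replicate 1 and 41.0 FPKM in replicate 2, and Klk1 had 4.81 and 0 FPKM. Mast cell and basophil genes, a lineage with Kit, summed to 625 and 498 FPKM in WT pre-pro-B, 274 and 215 FPKM in Lf-/- pre-pro-B, 524 FPKM in WT pro-B, and 3115 and 2271 FPKM in Lf-/- pro-B cells, with Mcpt4 at 0 in every library, whereas Kit was not highest in the latter. The 12 granulocyte-monocyte progenitor genes, of a stage that also expresses Kit, summed to 21482 to 27293 FPKM in the WT libraries and 5012 to 16055 FPKM in the Lf-/- libraries, without overlap and in the direction of Kit. Elane made up most of this sum in every library, and Elane and Mpo are also in the neutrophil granule list. Over both stages 9 of the 12 were below 0 and 3 above. In limma's test 5 of the 9 had an unadjusted p under 0.05, and 0 of the 12 an adjusted one. Irf8 went the other way and was higher in Lf-/- cells, also with an unadjusted p under 0.05. Among all 10793 genes 774 had an unadjusted p under 0.05 over both stages, 699 of them higher in Lf-/- cells. Of the 14 T and NK cell genes, 12 passed the filter. In Lf-/- pro-B cells 8 were at least 1 higher without overlap than in the 1 WT library. The 14 genes summed to 472 and 1027 FPKM in Lf-/- and 911 FPKM in WT pro-B cells. Nkg7, also in the granulocyte-monocyte progenitor list, made up most of this sum in every library. It was at 357 and 919 FPKM in Lf-/- and 885 FPKM in WT pro-B cells, so the sum gives little beyond Nkg7. The neutrophil granule genes had 6 lower and 3 higher in that comparison. Of all 10793 genes 1341 (12.4%) were higher and 121 lower there, or 440 and 393 with median-ratio scaling. The part of these cell types in the Flt3 and Kit values was not tested.

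**Figure D4:**
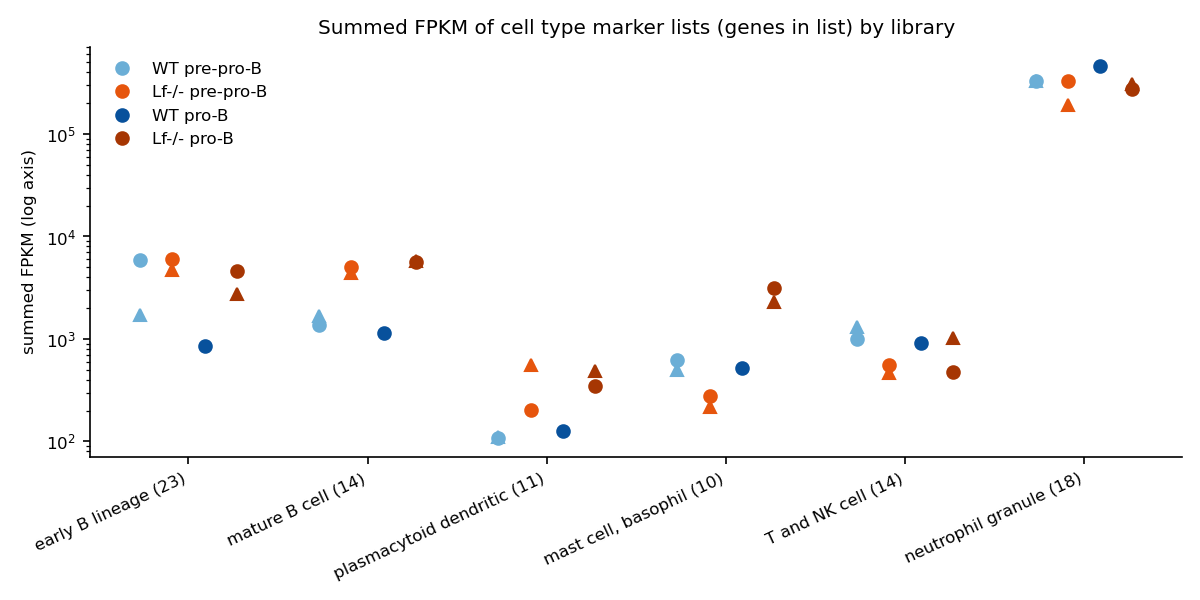
Summed FPKM (vertical axis, logarithmic) of 6 lists of cell type markers in each library, coloured by group, with circles for replicate 1 and triangles for replicate 2 and the number of genes in brackets. The mature B cell list, mostly Cd74, lay at 4378 FPKM or more in all 4 Lf-/- libraries and at 1675 FPKM or less in the WT libraries. The early B lineage list overlapped between the genotypes, and the plasmacytoid dendritic cell list was highest in Lf-/- pre-pro-B replicate 2.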

How the data were processed

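RNA of sorted cells was sequenced. The authors deposited 1 FPKM value per gene and library; the submitters' processing notes name TopHat, Cufflinks, HTSeq and DESeq without roles or versions, and build GRCm38. The unit was inferred from the values, whose products with transcript length fall on even steps. Samples were grouped by title, and 52403 of the 52550 genes matched GENCODE M21. Values were taken as log2(FPKM + 1), which understates changes of low genes. A gene entered a fit when 2 or more of its libraries reached 1 FPKM (of the 4 fitted, or of all 7). Fits used limma 3.58.1 under R 4.3.3, its mean-variance trend and two-sided tests, with Benjamini-Hochberg adjustment over all genes. Comparisons with the single WT pro-B library called differences of at least 1 on the log2 scale without overlap, and limma's test of them, with the spread of all 7 libraries, was an alternative. Scripts in Python 3.11.15 with pandas 2.3.3 made the rest, and the fits were tested on simulated data. Depth is an estimate from step heights, and counting intervals were not computed.

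Named genes are the 8 members, Ltf, at most the 3 genes of a list with the largest difference in the comparison described, list genes at 0 throughout, and the 2 genes nearest each member. Some genes that this rule names are not reported here. Members and lists were chosen with earlier results of these data known. Lists of neutrophil, granulocyte-monocyte progenitor, T and NK cell genes, among others, served as marker checks. Alternatives were median-ratio scaling, quantile normalization, library totals without the granule list, a pseudocount of 0.1, other filters, all 7 libraries in one fit, replicate blocks, and leaving out each library.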

Additional observations from a re-analysis of the deposited data

How the results depend on the processing

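The libraries are few, 1 has an unknown depth and WT pro-B cells have 1 library. In results below, numbers of genes called stand against 0 (genotype in pre-pro-B cells), 1462 (genotype in pro-B cells), 0 (stage in Lf-/-), 440 (stage in WT), 20 (genotype over both stages) and 0 (difference between stages). The cause of each shift was not tested.

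Median-ratio scaling gave 833 genes in pro-B cells (440 higher and 393 lower, compared with 1341 and 121) and 1 member, 0 members between WT stages (211 genes higher and 191 lower, compared with 86 and 354), and 7 genes and 0 members over both stages (5 higher and 2 lower, compared with 19 and 1). It reversed Notch1 (-0.10) and Myb (-0.028) over both stages and Ptprc between Lf-/- stages (-0.040), and turned the sign of the uncalled differences of Cd34 (-0.25) and Myb (-0.30) in pro-B cells and of Cd34 (0.13), Notch1 (0.14) and Myb (0.024) between WT stages. Quantile normalization gave 753 genes and 1 member in pro-B cells, 0 members between WT stages and 11 genes over both stages, and reversed Notch1 in pre-pro-B cells (0.066), Ptprc between Lf-/- stages (-0.034), and Cd34 (-0.036) and Myb (-0.084) over both stages, and turned the same 5 uncalled differences. Library totals without the granule list gave 1 member in pro-B cells and 12 genes over both stages. A pseudocount of 0.1 gave 2853 genes in pro-B cells, 1135 between WT stages and 9 over both stages, and turned the difference between stages of Flt3 to 0.012. No filter gave 0 genes and 0 members over both stages and 122 genes for the difference between stages, and at least 1 FPKM in every library gave 63 genes over both stages. With all 7 libraries in one fit, 0 genes and 0 members passed in limma's test in pro-B cells and between WT stages.

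The replicate numbers did not pair the libraries (correlations of deviations of 0.0393, 0.0532 and -0.013). With the replicate block, 65 genes and 1 member (Ly6d, adjusted p = 0.00231 from limma) passed in pre-pro-B cells and 84 genes between Lf-/- stages. These fits of 4 libraries leave 1 residual degree of freedom per gene. The SE of Ly6d in pre-pro-B cells was 0.65 with the block and 0.49 without, at the same log2 difference of 2.91. Its lower p thus did not come from a smaller spread. Counts over both stages and for the difference between stages stayed within 1.5 times.

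Leaving out each library gave 0 to 2856 genes and 0 to 3 members in pre-pro-B cells, 1422 to 2138 genes and 2 to 4 members in pro-B cells, 11 to 2329 genes and 0 to 2 members between Lf-/- stages, 626 to 717 genes and 0 to 1 members between WT stages, 0 to 127 genes and 0 to 1 members over both stages, and 0 to 523 genes and 0 members for the difference between stages. The counts of 2856, 2329 and 523 came without Lf-/- pre-pro-B replicate 1, that of 127 without Lf-/- pre-pro-B replicate 2 and that of 0 over both stages without WT pro-B replicate 1. In pre-pro-B cells the log2 difference then ran from -0.43 to 2.96 for Flt3 and -0.40 to 1.14 for Cd34. Between Lf-/- stages it ran from -2.29 to 1.10 for Flt3, -1.10 to 0.43 for Cd34 and -0.28 to 0.32 for Ptprc. Over both stages it ran from -0.13 to 0.64 for Cd34 and -0.15 to 0.25 for Notch1. The difference between stages ran from -1.84 to 1.55 for Flt3, -1.001 to 0.53 for Cd34, -0.54 to 0.25 for Ly6d and -0.19 to 0.0015 for Myb.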
